A study of Rattus norvegicus with 8 samples.

Results

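The microRNA miR-31 was measured in cardiomyocytes isolated from newborn and 10-day-old rats. It is 1 of 677 miRNAs on the array, read by 2 of its 1644 miRNA probes on 20 spots per array, and its members are the spots that the scanner files name rno-miR-31. It was selected on its measured values, as the miRNA with the largest rise between the ages in these arrays, so its own levels and differences are given as a description and carry no test. Total RNA was hybridised to 8 one-colour Agilent arrays, 4 labelled postnatal day 0 (P0) and 4 labelled postnatal day 10 (P10). Both groups are untreated heart muscle cells of rats of either sex, and strain, genotype, the purity of the cells and the number of animals behind a sample are not given in the sources used here. The younger age is P0 in the sample labels but day 1 in the title and design of the series, and the sample labels are followed. According to those labels, cardiomyocytes proliferated less at P10 than at P0, so the comparison asks which miRNAs differ between cells with more and with less capacity to divide.

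MicroRNAs are short RNAs that repress messenger RNAs, mostly by pairing through the seed, a stretch near their 5′ end. miR-31 is cut from a hairpin whose 5′ arm gives the main product and whose 3′ arm gives the partner strand, miR-31*. It is known from epithelium, smooth muscle and cancer cells, and in neonatal rat cardiomyocytes it has been reported to raise proliferation and to repress Rhobtb1.

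The sequences show what each probe of the locus reads. In the RefSeq tables for rat build GRCr8 the hairpin Mir31 lies at chr5:108714849-108714954 on the minus strand, inside the span of the long non-coding gene LOC130062807, whose exons the table does not give. The mature sequences follow with the seed (bases 2 to 8) in capitals, then the hairpin with both mature arms in capitals, then the brighter array probe of each arm, which is the reverse complement of its target.
miR-31: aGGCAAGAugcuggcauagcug
miR-31*: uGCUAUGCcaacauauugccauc
Mir31 hairpin: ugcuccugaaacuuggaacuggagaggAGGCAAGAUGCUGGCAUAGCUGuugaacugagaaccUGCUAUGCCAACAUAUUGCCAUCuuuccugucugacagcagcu
17-base probe of miR-31: cagctatgccagcatct
19-base probe of miR-31*: gatggcaatatgttggcat
15-base probe of miR-3554: aggcaagatgctggc

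The 17-base probe pairs with bases 6 to 22 of miR-31, and the second probe, of 16 bases, with bases 7 to 22, so both read the 3′ part of the miRNA and cover the seed only in part. Of 691 other mature rat miRNAs in the RefSeq table, 0 carry the seed of miR-31, and the closest ungapped match to the 17 target bases is 12 identical bases, in miR-485-5p. The probes of miR-3554, a miRNA annotated on the same locus, have the same letters as bases 1 to 15 and 1 to 14 of miR-31 and therefore bind the opposite strand. On rat build rn4 (RGSCv3.4), the scanner files place the 17-base probe at chr5:108497682-108497697, a span 1 base shorter than the probe, and the 19-base probe of miR-31* 20 bp away. The next array miRNAs on the other side, miR-455* and miR-455, lie 28258 kb away and were not well above background on any array. In GRCr8, the protein-coding neighbours include the interferon gene Ifne at 26.7 kb, and the cell cycle inhibitor genes Cdkn2a and Cdkn2b at 386 kb and 408 kb.

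The arrays were not alike in brightness. Each was divided by the 75th percentile of its signals from the 111 probes that every array detected, a scaling signal of 116 intensity units on P0 replicate 1 and of 580 to 1326 on the other 7. A probe was called detected where the scanner marked a share of 0.5 or more of its spots as well above background, and the lowest detected scaled signal was log2 -2.84 on P0 replicate 1 against -6.61 to -5.48 on the others. The P10 arrays formed near-identical pairs. Over the probes detected on both arrays compared, the SD of the log2 difference was 0.133 between P10 replicates 1 and 2 and 0.203 between replicates 3 and 4, but 0.972 to 1.03 across the pairs and 0.256 to 0.453 among P0 replicates 2 to 4. Whether replicates are separate animals or cultures is not in the labels, and p-values here cover the spread between these samples alone, which may be technical. The slide's first row held all P0 arrays and its second row all P10 arrays, so age and row cannot be told apart.

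miR-31 gave bright spots on every P10 array and faint or no signal on the P0 arrays. The background-subtracted signal of the 17-base probe was -2.39, 21.8, 11.3 and 19.8 intensity units on P0 replicates 1 to 4. On P10 replicates 1 to 4 it was 402, 359, 84.8 and 86.8 units. The 4 P10 values were all higher than the 4 P0 values, and they fell into a brighter and a dimmer pair. The group means were 12.6 ± 11.0 units at P0 and 233 ± 171 units at P10 (SD, n = 4 each).

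Spots within an array differed far less than the arrays did. On P10 replicates 1 and 2 the single spots ran from 381 to 422 and from 349 to 371 units, and on replicates 3 and 4 from 77.6 to 89.6 and from 81.8 to 92.2 units. All 10 spots were well above background on each P10 array. At P0 this held for 0 of 10 spots on replicate 1, 10 of 10 on replicate 2, 0 of 10 on replicate 3 and 6 of 9 on replicate 4, so miR-31 counted as detected on 2 of the 4 P0 arrays. For scale, the 434 negative-control spots of an array averaged 3.80 to 5.21 units, with a 95th percentile of 7.42 to 9.64 units. The signal on P0 replicates 2 to 4 was above that percentile of its own array, and that on P0 replicate 1 was below 0.

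After scaling, values below a floor of 0.0169 (log2 -5.89), which is the arrays' median for the lowest detected signal, were set to it. On the log2 scale miR-31 stood at -5.89, -5.89, -5.89 and -5.87 on the P0 arrays, the first 3 of them at the floor. It stood at -0.70, -0.69, -3.91 and -3.87 on the P10 arrays. The means were -5.89 ± 0.01 and -2.29 ± 1.85 (SD, n = 4), a log2 difference of 3.59 or 12.1-fold, whose size the floor sets in part. P0 replicate 1 could not have detected a level like that of P10 replicates 3 and 4, which lay below its lowest detected signal of -2.84. Of all 158 tested miRNAs, 21 (13.3%) had every P10 value above every P0 value, as miR-31 had, and 20 (12.7%) had every P10 value below.

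Within P10 the 2 levels of miR-31 differed from each other by more, after scaling, than the lower one differed from P0. Set against P0 replicates 2 to 4 without a floor, the scaled signal of P10 replicates 3 and 4 was 4.25 times as high (range over pairs of arrays, 3.89 to 4.86). That of P10 replicates 1 and 2 was 38.9 times as high (36.1 to 43.9). P10 replicates 1 and 2 were 9.16 times as high as replicates 3 and 4 (9.02 to 9.31), or 4.43 times before scaling (4.13 to 4.75). Before scaling, P10 replicates 3 and 4 were 4.86 times as high as P0 replicates 2 to 4 (3.89 to 7.65). Which of the 2 steps is the larger thus depends on the scaling. The floored log2 difference between the ages was accordingly 5.04 without P10 replicates 3 and 4, 2.12 without P10 replicates 1 and 2, and 3.46 without P0 replicate 1.

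The second probe of miR-31 showed the same brighter and dimmer P10 pair. The 16-base probe measured -2.05, 10.5, 3.85 and 7.97 units on the P0 arrays and 195, 169, 43.2 and 42.5 units on the P10 arrays. It was detected on 0 P0 and 4 P10 arrays, and its P10 level was at least 3.94-fold higher, or at least 6.95-fold without P0 replicate 1. For this bound, each P0 array was given its lowest detected signal, or the probe's signal where that was higher, and the P10 mean was set against the mean of these. The signal of the 17-base probe was 1.96 to 2.12 times that of the 16-base probe on the P10 arrays and 2.07 to 2.95 times on P0 replicates 2 to 4.

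**Figure D1:**
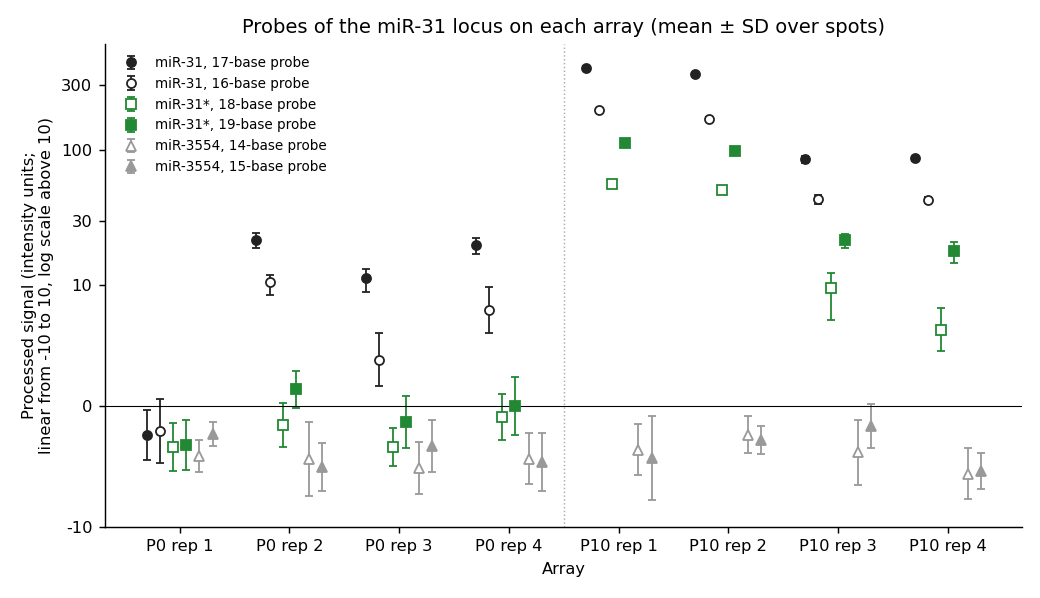
Processed signal in intensity units (linear from -10 to 10, log scale above) of the probes of miR-31, miR-31* and miR-3554 on each array, with points for the mean and bars for the SD over spots. The 17-base probe of miR-31 lies at 402 and 359 units on P10 replicates 1 and 2 and at 84.8 and 86.8 on replicates 3 and 4, above every P0 array, while the miR-3554 probes stay below 0 on all arrays.

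The other strand of the hairpin, miR-31*, was seen on P10 arrays and on no P0 array. Its 19-base probe measured -3.22, 1.40, -1.32 and 0.01 units on P0 replicates 1 to 4, with 0 arrays detected. It measured 111, 97.7, 21.5 and 17.8 units on P10 replicates 1 to 4, with 4 arrays detected. The second probe of miR-31*, of 18 bases, was fainter, at 56.2, 50.3, 9.77 and 6.32 units on the P10 arrays. It was detected on 0 P0 and 2 P10 arrays. The brighter and the dimmer pair were the same as for miR-31. By the 19-base probe, the signal of the brighter pair was 5.32 times that of the dimmer one before scaling and 11.0 times after it. By the same probe, the level at P10 was at least 2.02-fold higher than at P0, or at least 3.56-fold without P0 replicate 1. The 18-base probe gave 0.91 in place of 2.02, which shows no rise, and 1.61 without P0 replicate 1. miR-31* entered the test through P10, where it is high, and all its P0 values were set to the floor and have no spread. Its fitted log2 difference of 1.67 ± 0.82 (SE, n = 4 per age) did not pass the threshold (adjusted p = 0.217, limma with Benjamini-Hochberg over 158 miRNAs). It was 3.17 without P10 replicates 3 and 4 and 0.12 without P10 replicates 1 and 2, because P10 replicates 3 and 4 lay at the floor after scaling. Both strands come from the same RNA on the same arrays, so miR-31* is no independent sample of the difference.

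The opposite strand of the locus gave no signal. The probes of miR-3554 averaged -5.59 to -1.63 units over the 8 arrays, and were not well above background on any of them.

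The authors' deposited log2 matrix, which lists the miRNA as miR-31a-5p, held the same P10 pairs, with equal values within each. Its values were 3.30, 2.52 and 3.05 on P0 replicates 2 to 4, with P0 replicate 1 marked as not detected and given -2.15. On P10 replicates 1 to 4 the authors' deposited log2 matrix gave 8.41, 8.41, 5.89 and 5.89. It marked miR-31a-3p, the name there of miR-31*, as detected on all 4 P10 and 0 P0 arrays, and miR-31b, the name there of miR-3554, on none.

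The miRNAs whose profile over the arrays was nearest to that of miR-31 shared its step within P10. Likeness was measured as the root mean square (RMS) difference between log2 values, each miRNA first centred on its own mean over the 8 arrays, and the 6 nearest of the tested miRNAs were miR-199a-3p (0.62), miR-214 (0.72), miR-199a-5p (0.72), miR-221 (0.78), miR-29a (0.84) and miR-29b (0.95). miR-31* came next at 0.97. Their mature sequences are shown, with seeds in capitals, to compare the seeds with that of miR-31 above.
miR-199a-3p: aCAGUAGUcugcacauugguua
miR-214: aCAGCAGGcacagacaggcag
miR-199a-5p: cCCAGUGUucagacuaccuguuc
miR-221: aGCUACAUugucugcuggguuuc
miR-29a: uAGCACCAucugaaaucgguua
miR-29b: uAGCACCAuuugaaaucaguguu

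Among the 6, miR-29a and miR-29b have one seed in common, and the others each have their own. The hairpins of miR-199a and miR-214 lie close together on rat chromosome 13, and this group is known from fibroblasts and other mesenchymal cells, while miR-199a-3p has also been reported to raise cardiomyocyte proliferation. miR-221 is known from vascular cells, and the miR-29 family represses collagen genes. Since these 6 were picked for their likeness to miR-31 over the same arrays, their differences are described without a test here.

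miR-199a-3p stood at log2 -4.60, -3.44, -3.54 and -3.46 on the P0 arrays and at 0.48, 0.51, -2.78 and -2.97 on the P10 arrays. As for miR-31, all P10 values were above all P0 values, but the dimmer P10 pair lay much nearer to P0. miR-214 was at -4.12, -4.16, -4.08 and -4.10 at P0 and at -0.25, -0.16, -3.64 and -3.71 at P10. miR-29a was at -2.26, -1.39, -1.48 and -1.39 at P0 and at 1.58, 1.61, -0.40 and -0.32 at P10, with P0 replicate 1 the lowest. Its dimmer P10 pair stood clear of all P0 arrays. miR-221 was detected on 0 P0 and 4 P10 arrays, with a P10 level at least 2.72-fold that of P0. The log2 differences between the ages were 2.57 for miR-199a-3p, 2.17 for miR-214, 2.23 for miR-199a-5p, 2.25 for miR-29a and 1.85 for miR-29b. Without P10 replicates 1 and 2 they came to 0.88, 0.44, 0.61, 1.27 and 0.72 in that order, against 2.12 for miR-31.

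**Figure D2:**
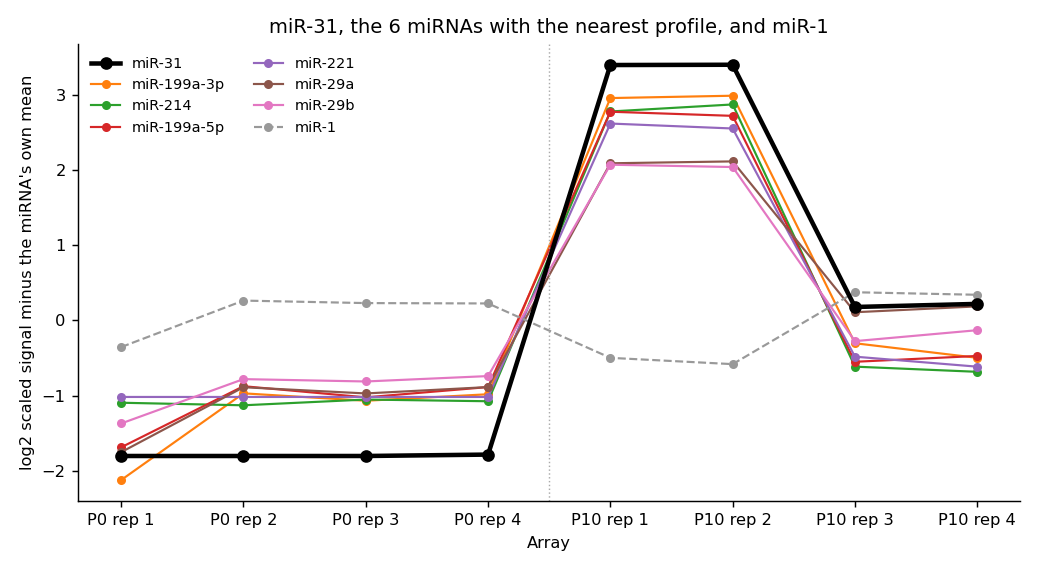
Log2 scaled signal minus each miRNA's own mean (y axis) on the 8 arrays (x axis) for miR-31, the 6 miRNAs nearest to it and the muscle miRNA miR-1; lines only join the points of 1 miRNA. The 7 profiles are highest on P10 replicates 1 and 2, where miR-1 is low.

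Other miRNAs had as large a gap between the P10 pairs as miR-31. As a mean log2 difference of replicates 1 and 2 minus replicates 3 and 4, it was 3.20 for miR-31, the fifth largest of 158, with miR-214 (3.47), miR-199a-3p (3.37), miR-31* (3.33) and miR-199a-5p (3.26) above it. Over all 158 tested miRNAs the median gap was 0.60, and 49 miRNAs had a gap over 1 and 9 a gap under -1. The muscle miRNAs miR-1 (-0.90) and miR-133a (-1.35) had gaps in the opposite direction.

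**Figure D3:**
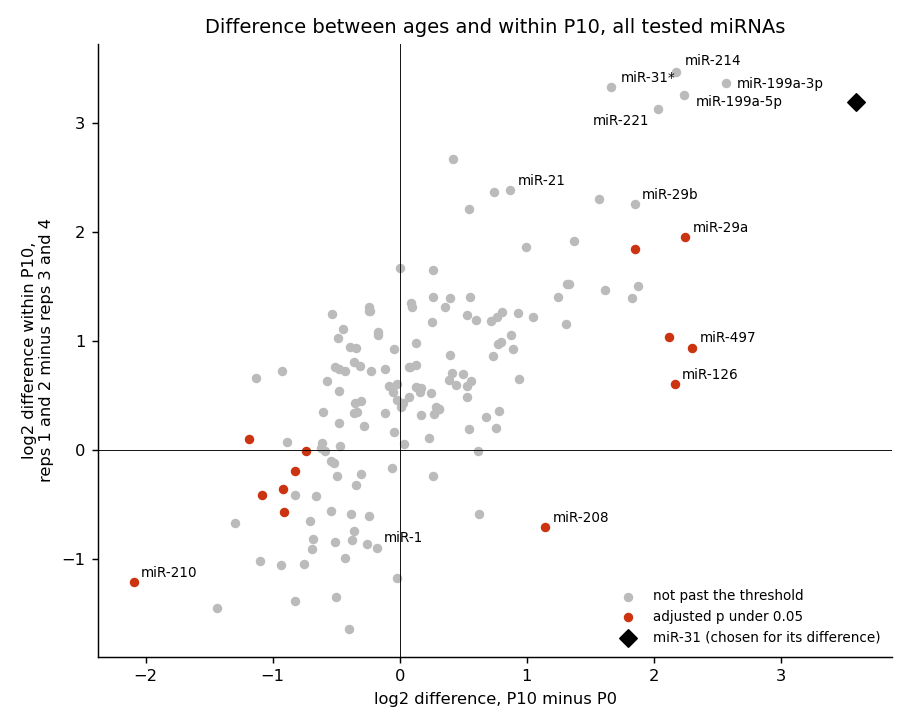
Log2 difference P10 minus P0 (x axis) against the log2 difference within P10, replicates 1 and 2 minus replicates 3 and 4 (y axis), for the 158 tested miRNAs; red points had an adjusted p under 0.05 in limma and the diamond is miR-31, chosen for its difference. miR-31 lies at 3.59 and 3.20, beside miR-214, the miR-199a strands, miR-221 and miR-31* on the y axis and apart from them on the x axis. For miR-31* and miR-221 the floor, to which all 4 P0 arrays were set, limits the x value. In the authors' deposited log2 matrix these 2 lay past miR-31 (7.70 and 6.99 against 5.47), while miR-214 and the miR-199a strands did not. That matrix gives arrays without detection a low value, on all 4 P0 arrays for miR-31* and on P0 replicate 1 for miR-31. This value sets the size of both differences in part.

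Markers of fibroblasts and of cardiomyocytes moved in opposite directions between the P10 pairs. The summed scaled signal of the 4 fibroblast miRNAs (miR-21, miR-199a-3p, miR-199a-5p and miR-214), all detected, was 4.24, 6.66, 6.31 and 6.96 on the P0 arrays and 26.5, 27.1, 4.89 and 4.86 on the P10 arrays. The sum of the 6 cardiomyocyte miRNAs (miR-1, miR-133a, miR-133b, miR-208, miR-208b-3p and miR-499), all detected on at least 1 array, was 11.7, 17.1, 15.6 and 16.2 at P0 and 10.1, 9.26, 19.9 and 20.7 at P10. P10 replicates 1 and 2 thus carried the highest fibroblast and the lowest cardiomyocyte sums of the 8 arrays, and also the highest miR-31. The part of other cell types in the level of miR-31 on these arrays was not tested. On P10 replicates 3 and 4 the fibroblast sum lay below that of P0 replicates 2 to 4, but miR-21 made up 90.1% to 97.4% of it on every array. The sum of the other 3 members, a division of the list made after the values were seen, was 0.116, 0.179, 0.173 and 0.180 at P0 and 2.62, 2.69, 0.264 and 0.244 at P10. Without miR-21 the fibroblast miRNAs were thus higher on all P10 arrays than on any P0 array, as was miR-31. These 3 are also the miRNAs nearest to miR-31 in profile over the same arrays, so this likeness is no independent observation. The cardiomyocyte sum of P10 replicates 3 and 4 was above that of all P0 arrays. This sum is carried by miR-1 and miR-133b, its brightest members. miR-499 did not follow it, at log2 -2.64 and -2.54 on P10 replicates 3 and 4 against -2.21 to -1.94 on P0 replicates 2 to 4. In a sample of many cells, fewer cells of a type and less RNA per cell cannot be told apart. miR-21, an abundant fibroblast miRNA, stood at log2 2.04 to 2.76 at P0 and at 4.58, 4.61, 2.21 and 2.21 at P10.

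**Figure D4:**
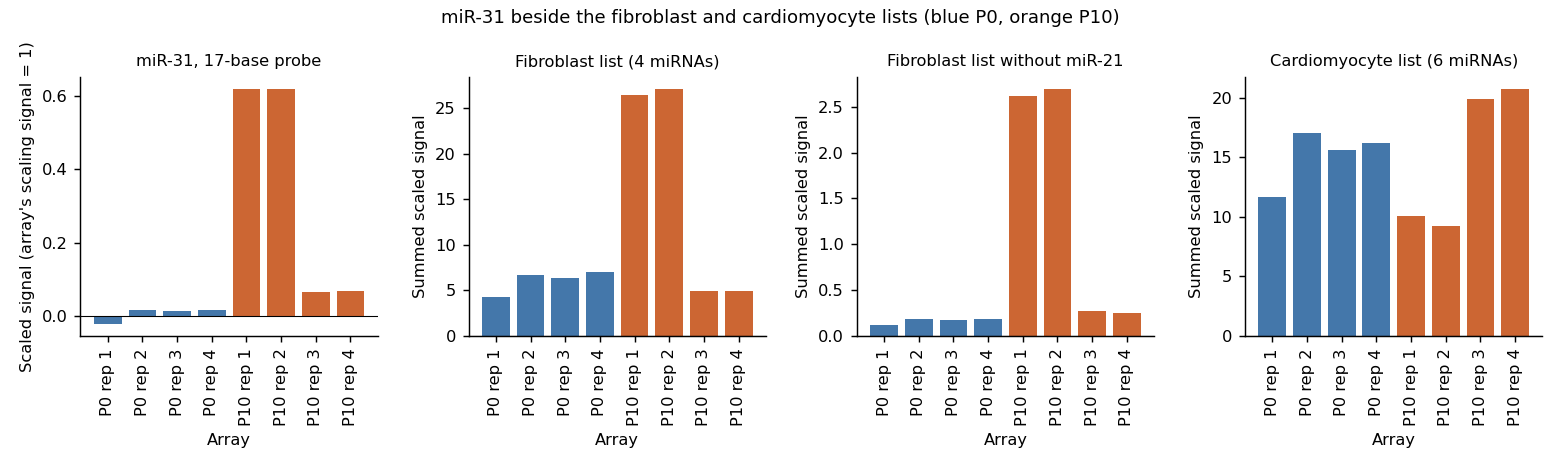
Scaled signal of miR-31 (first panel) and summed scaled signal of the fibroblast list, of that list without miR-21, and of the cardiomyocyte list on the 8 arrays, as bars from 0, blue for P0 and orange for P10, where 1 is the array's scaling signal. miR-31 and the fibroblast sum are highest on P10 replicates 1 and 2, and on P10 replicates 3 and 4 miR-31 and the fibroblast sum without miR-21 (0.264 and 0.244) are above P0, while the whole fibroblast sum (4.89 and 4.86) is not above that of P0 replicates 2 to 4.

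Other cell types were followed by the miRNAs known from them. With limma and Benjamini-Hochberg adjustment over all 158 miRNAs, 7 (4.43%) were higher and 7 (4.43%) lower at P10, against which the counts that follow are read. The 7 higher include miR-31, which was chosen for its rise, so its place in this count is no test of it. The others are miR-126, miR-146a, miR-195, miR-208, miR-29a and miR-497. All of these others are members of the lists, so the share of higher miRNAs is not independent of the list counts. Of the cardiomyocyte list 1 of 5 tested members rose, miR-208, encoded within Myh6, a myosin gene (log2 1.14 ± 0.25, adjusted p = 0.0285, limma; -0.072 after normexp), and 0 fell, with a median difference of -0.18 against 0.03 over all tested miRNAs. The fibroblast list had 0 of 4 past the threshold in either direction and a median of 2.20. The endothelial miR-126 rose by 2.17 ± 0.43 (adjusted p = 0.0216, limma), while its partner miR-126* was not detected. miR-126 was detected on 3 P0 and 4 P10 arrays, so it entered the test through P10, where it is high. The endothelial sum was 0.00724 to 0.0620 at P0 and 0.151 to 0.251 at P10, with the higher values again on P10 replicates 1 and 2.

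Of smooth muscle miRNAs, miR-143 fell by 0.92 ± 0.23 (adjusted p = 0.0434, limma; 0.25 when scaled to the 75th percentile over all probes), and the sum with miR-145 was 1.37 to 2.17 at P0 and 0.852 to 1.17 at P10. Of 2 tested leukocyte miRNAs 1 rose, miR-146a of innate immune signalling (1.85 ± 0.48, adjusted p = 0.0434, limma), while the other, miR-223 of myeloid cells, differed by -0.24 ± 0.69. The calls of miR-146a and miR-208 rest on the floor. Both were detected on 1 P0 array and set to the floor on all 4, and they entered the test through P10. With a doubled floor miR-146a came to 0.89 (adjusted p = 0.260, limma) and miR-208 to 0.25 (adjusted p = 0.318, limma), and with no floor both had an adjusted p of 0.212 in limma. Over 26 alternatives the adjusted p ran from 4.53e-06 to 0.960 for miR-146a and from 0.00094 to 0.979 for miR-208. The leukocyte sum over 5 miRNAs was 0.194 on P0 replicate 1, 0.0521 to 0.0596 on P0 replicates 2 to 4 and 0.0755 to 0.219 at P10, with miR-142-5p at background. Its untested member miR-142-3p was detected on 0 P0 and 2 P10 arrays and lay above the floor on P10 replicates 1 and 2 alone. None of the 7 epithelial miRNAs, among them miR-200c, miR-203 and miR-205, was detected on any array, and their sum was at most 0.00137. The liver miRNA miR-122, the neural miR-9 and miR-124 and the erythroid miR-144 were not detected either, while the erythroid miR-451 was detected on 3 P0 and 2 P10 arrays. The erythroid sum was 0.00186 to 0.0336 at P0 and 0.00367 to 0.0180 at P10, the neural sum 0.0178 to 0.0697 and 0.0504 to 0.0631, and the liver sum 0 to 0.0174 and 0.0149 to 0.0238.

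miR-31 was set beside miRNAs with a reported role in heart cell division. Of 10 miRNAs reported to raise it, all on the array, 8 were tested and 1 fell, the hypoxia-induced miR-210, which fell by 2.09 ± 0.34 (SE, adjusted p = 0.00797, limma with Benjamini-Hochberg). The remaining 7 were not past the threshold, among them miR-199a-3p, miR-19a (1.00 ± 0.62) and miR-18a (0.74 ± 0.70) of the miR-17-92 cluster, and the median was 0.50. Of the 2 untested ones, miR-204 was not detected and miR-222 was detected on P10 replicates 1 and 2 alone.

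Of 10 miRNAs reported to hold back division, all tested, 3 rose and 0 fell, with a median of 0.52. They were miR-497 (2.30 ± 0.29, adjusted p = 0.00503) and miR-195 (2.12 ± 0.31, adjusted p = 0.00694), which belong to the miR-15 family and repress cell cycle genes, and miR-29a (2.25 ± 0.53, adjusted p = 0.0404, limma for all 3). miR-497 was detected on 3 P0 and 4 P10 arrays and miR-195 on 2 and 4. Both thus entered the test through P10, the age at which they are high. With no floor, of the 8 calls named in these lists that of miR-210 alone passed. In the files' total signal per miRNA, miR-497 and miR-195 came to -0.40 and -1.49 instead. miR-29a is also one of the 6 miRNAs nearest to miR-31 over the same arrays, so its call is not independent of that choice. let-7b, which represses growth genes, was at 0.77 ± 0.32 and the muscle miRNA miR-1 at -0.18 ± 0.30. miR-497 stood at log2 -5.89, -5.53, -5.75 and -5.56 on the P0 arrays and at -2.87, -2.95, -3.87 and -3.83 on the P10 arrays. Its P10 pairs lay 0.94 apart, against 3.20 for miR-31.

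The counts depended on the arrays used. Without P0 replicate 1, where 25 (14.9%) of 168 miRNAs were higher and 46 (27.4%) lower, the list that holds back division had 4 higher, that which raises it 1 lower, and the cardiomyocyte list 0. Without P10 replicates 1 and 2 (6 of 170 higher, 3.53%, and 8 lower, 4.71%), the counts were 2 higher, 1 lower and 1 higher in that order, and the fibroblast median was 0.52. Without P10 replicates 3 and 4 (50 of 167 higher, 29.9%, and 26 lower, 15.6%), all 4 fibroblast members were higher with a median of 3.86. They include the miR-199a strands and miR-214, the miRNAs nearest to miR-31 in profile, so this count is not independent of that choice. With the same arrays left out, the list that holds back division had 7 higher and 1 lower, and that which raises it 5 higher and 1 lower. With each P10 pair averaged to 1 sample, limma called 0 (0%) in either direction over all lists and all miRNAs, with 26 of 158 at an unadjusted p under 0.05.

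The size of the miR-31 difference depended on how faint P0 signal was treated. It was positive in all 25 alternatives, between 1.23 after normexp background correction and 5.98 with no floor, and the second probe in place of the first gave 2.57. Its place as the largest rise held in 22 of 26 alternatives. It ranked 2 with no floor, 4 with the 75th percentile over all probes and in the authors' deposited log2 matrix, and 6 after normexp. The replicate block and the averaged P10 pairs cannot change the difference or its rank, so they add nothing to these counts.

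**Figure D5:**
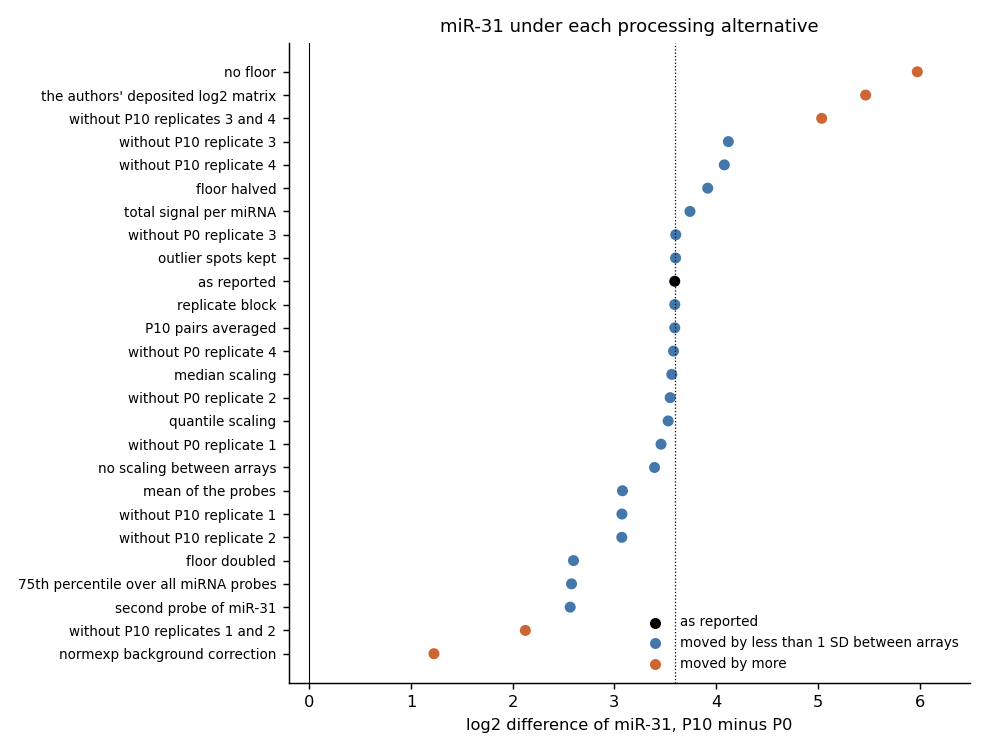
Log2 difference of miR-31, P10 minus P0 (x axis), under each processing alternative (one row each), with the value used in the text at 3.59. All points lie above 0, from 1.23 after normexp background correction to 5.98 with no floor.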

How the data were processed

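Per the labels, total RNA from the mirVana kit was dephosphorylated, denatured and labelled with Cy3. The deposited scanner files hold spot intensities, made with Agilent Feature Extraction 10.7.1.1 per the submitters' processing notes on array design 031189. The processed signal used is background-subtracted and not scaled between arrays, per the file headers, so values below 0 occur. A deposited series-wide spot table holds these intensities, rounded (largest relative difference 0.493%). It was thus linear, uncentred and in the same direction, with column medians of -2.31 to -0.179. The authors' deposited matrix holds log2 values, and the sources used here do not give how it was normalized. Of 677 miRNAs, 675 matched its 699 entries by accession.

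Outlier-marked spots were left out (8 of 160 for miR-31), and no spot of the locus was saturated (0). The other spots of a probe were averaged. Signals were scaled to the array's 75th percentile, taken over 111 probes that all arrays detected, floored at 0.0169 and put on the log2 scale. Of several probes, that with the highest mean stood for the miRNA, and different probes are given separately for the locus. Tests covered the 158 of 677 miRNAs that all 4 arrays of either age detected. They used lmFit and eBayes of limma 3.58.1 under R 4.3.3, Benjamini-Hochberg adjusted over all 158, with a threshold of 0.05, and the script was tested on simulated data. Python 3.11.15 with numpy 2.4.6 and pandas 2.3.3 read the files.

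The 4 arrays of an age were counted as 4 samples. Between P10 replicates 1 and 2, 59.3% of probes differed by less than 2 standard errors of their spots, and between replicates 3 and 4, 46.2%, against 39.9% to 60.9% among P0 replicates 2 to 4. Spot error does not tell repeat hybridisations of 1 RNA from separate samples, so the pairs were kept as the labels give them and also averaged as an alternative. Named miRNAs were miR-31, its other arm, the 6 nearest profiles, the 2 nearest array miRNAs on each side, up to 4 tested miRNAs per list, by absolute difference, and miR-21, miR-145, miR-223, miR-195 and miR-1. miR-31 and all lists were chosen with earlier results of these data known. Errors are SD for levels and SE for differences, and the number of arrays limits the precision. Alternatives were other scalings, floors, background corrections, probes, filters, sources of values, a replicate block and arrays left out.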

Additional observations from a re-analysis of the deposited data

Results flagged for a closer look

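P0 replicate 1, the array with the lowest scaling signal, stood apart from the other 3 P0 arrays in 14 of the 23 named probes examined, and in 80 (51.9%) of 154 when all tested miRNAs were examined. In P10, 0 of 26 named probes and 0 of 158 over all had such an array. Each P10 array has a near-identical partner, so a single array could hardly stand apart there. In each of the 14, the gap of P0 replicate 1 to the nearest of the other 3 scaled signals was a larger share of the range of all 4 than Dixon's critical value for 4 samples. Chance alone marks about 1 in 20 groups this way. For the 17-base probe of miR-31 the share was 0.921, with a scaled signal of -0.0207 against 0.0141 to 0.0171. Among the miRNAs nearest to miR-31 it was 0.880 for miR-199a-3p, 0.874 for miR-29a and 0.863 for miR-29b. In the lists on cell division and on cardiomyocytes it was 0.848 for miR-210, 0.905 for miR-18a, 0.9001 for miR-497, 0.892 for miR-208 and 0.926 for miR-1. In the lists of other cell types it was 0.872 for miR-126, 0.854 for miR-145, 0.925 for miR-146a and 0.923 for miR-128. On all of these P0 replicate 1 was the lowest array. For miR-223 the share was 0.926 and P0 replicate 1 was the highest, at 0.188 against 0.0221 to 0.0343.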

How the results depend on the processing

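The difference of miR-31 (log2 3.59) was 5.98 with no floor, 1.23 after normexp, 5.47 in the authors' deposited log2 matrix, 2.12 without P10 replicates 1 and 2 and 5.04 without P10 replicates 3 and 4. It was 3.07 to 4.12 when 1 array was left out. That of miR-31* (1.67), detected on 0 P0 arrays, was 10.3 with no floor, 7.70 in that matrix and 3.17 without P10 replicates 3 and 4. How undetected P0 signal is coded sets the first 2 of these. In the other alternatives the miR-31 difference moved by less than 1.30, the pooled SD. The counts of 7 higher and 7 lower miRNAs came to 11 and 0 with no scaling, where the median of all moved from 0.03 to 0.35. They became 1 and 3 with no floor, 4 and 4 with the mean of the probes, 1 and 0 in the authors' deposited log2 matrix, 50 and 26 without P10 replicates 3 and 4, and 1 and 3 with no filter on dim miRNAs. The lower count alone became 15 with a doubled floor and 14 when miRNAs detected on at least 1 array were tested. limma called 0 and 0 with the 75th percentile over all probes (19 of 158 at an unadjusted p under 0.05), after normexp (22), with the total signal per miRNA (35) and with P10 pairs averaged (26). With 1 array left out, 2 to 25 were higher and 2 to 46 lower, the highest counts without P0 replicate 1. The cause was not tested. With the replicate block the counts were 3 and 1, and miR-31 stayed at 3.59, which a block cannot change in this balanced design. Deviations of same-numbered arrays correlated at 0.163, -0.154, 0.0325 and 0.136, and those of arrays with different numbers at -0.210 to 0.204. The deviations also hold the step between the P10 pairs and the apartness of P0 replicate 1. Whether the numbers pair the samples therefore cannot be told from them. Called values changed sign for miR-143 (0.25, 75th percentile over all probes), miR-208 (-0.072, normexp), miR-497 (-0.40, total signal) and miR-195 (-1.49, total signal). Of 624 other values of 24 named miRNAs, 488 kept direction and side of the threshold, 17 that did not pass turned sign, 98 no longer passed and 17 newly passed. Only a miRNA called as reported could lose its call, so all 98 fell among the called miRNAs. The 488 also count miRNAs that were not called, and so do not measure how stable the calls were. Of the 6 nearest profiles 5 were shared without P0 replicate 1, 5 under quantile scaling and 6 with a doubled floor. On P0 replicate 1, signal under log2 -2.84 could not be detected.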
